A study of Mus musculus with 6 samples.

Results

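Mature dendritic cells are the form a dendritic cell takes after it has been activated. They switch on the chemokine receptor CCR7, which guides them from the tissue to the draining lymph node, and fascin (Fscn1), which bundles the actin of their long processes. There they present antigen to T cells, with costimulatory ligands, cytokines and inhibitory ligands on or from the same cell, and the NF-κB family of transcription factors is known to run much of this programme.

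In the scRNA-seq data of CD45+ cells from CT26 tumors, 83 of 9235 cell barcodes (0.899%, 95% exact binomial interval 0.716 to 1.11%) were taken as mature dendritic barcodes. They were selected on measured transcripts of named genes. A barcode was taken when it had at least 1 Ccr7 UMI (a unique molecular identifier, that is, 1 counted transcript molecule), a UMI of at least 2 of Fscn1, Ccl22, Cacnb3 and Il4i1, and no UMI of Cd3e, Cd3d, Ncr1 or Cd79a, which mark T, NK and B cells. They were set beside 141 immature conventional dendritic barcodes (1.53% of all), which had a UMI of Flt3, the receptor for the growth factor that dendritic cells depend on, and none of Ccr7 or of Siglech, a plasmacytoid dendritic cell gene.

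CT26 is a mouse colon carcinoma line, here grown under the skin of female BALB/c mice. Tumors of 3 mice received exoASO-Scramble and tumors of 3 mice received exoASO-STAT6, exosomes that carry a control or a Stat6-directed antisense oligonucleotide, as 3 intratumoral injections on alternate days, and were taken 24 h after the last. The deposited matrix holds barcodes with 6 suffixes, numbered 3 to 8, which match no tumor label, so that no treatment comparison was made and the matrix was treated as 1 pooled sample. All values below are therefore descriptions with no test, and intervals cover counting error only. The suffixes held 867 to 2017 barcodes and 11492757 to 33902084 UMIs each.

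The genes that chose the members were at high levels in them by construction. Summed over the 83 barcodes, in CPM (counts per 1000000 UMIs), Ccr7 was at 1292, Fscn1 at 1205, Ccl22 at 601, Cacnb3, a calcium channel subunit, at 305, and Il4i1, a secreted amino acid oxidase, at 313, against 0, 9.64, 8.97, 4.32 and 18.6 in the immature barcodes. All 4 genes beside Ccr7 were found in 40 members, 3 in 28 and exactly 2 in 15. The last group lay just inside the threshold and had a Ccr7 level of 808 CPM and a Fscn1 level of 271 CPM. Just outside it, 37 barcodes with Ccr7 and only 1 of the 4 genes had 372 and 27.8 CPM. A UMI of Flt3, which the rule did not ask for, was found in 56 of the 83 members (67.5%).

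The promoters of 3 genes are shown here because they belong to genes the results turn on. Over all barcodes Ccl17 had the highest ratio of mature to immature barcodes among the genes named by rule, and it is a known target of STAT6, the factor that the oligonucleotide was directed against. That rank rests on 2 immature UMIs. Without suffix 5 Sox4 was above it, at a log2 ratio of 7.42 against 6.47. Against immature barcodes without T, NK or B cell UMIs, Sox4 was at 7.29 and Ccl17 at 7.11. The place of Sox4 is limited by counts as well, since it had only 4 immature UMIs over all suffixes. Nfkb2 and Rel are NF-κB subunits that were more than 2-fold higher in the mature barcodes. Each run is the 250 bases before the RefSeq gene start (GRCm38.p6, the assembly that mm10 names), 5′ to 3′ on the gene's strand, with the motif in capitals.
Ccl17: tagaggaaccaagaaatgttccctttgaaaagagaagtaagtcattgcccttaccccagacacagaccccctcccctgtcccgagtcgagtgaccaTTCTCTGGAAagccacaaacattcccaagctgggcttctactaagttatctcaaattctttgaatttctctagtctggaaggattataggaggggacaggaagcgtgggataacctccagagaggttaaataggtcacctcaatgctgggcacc
Nfkb2: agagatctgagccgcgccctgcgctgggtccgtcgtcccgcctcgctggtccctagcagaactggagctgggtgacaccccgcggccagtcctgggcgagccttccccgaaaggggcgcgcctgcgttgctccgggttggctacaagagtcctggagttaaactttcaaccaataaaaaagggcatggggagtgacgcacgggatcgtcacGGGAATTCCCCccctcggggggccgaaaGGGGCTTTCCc
Rel: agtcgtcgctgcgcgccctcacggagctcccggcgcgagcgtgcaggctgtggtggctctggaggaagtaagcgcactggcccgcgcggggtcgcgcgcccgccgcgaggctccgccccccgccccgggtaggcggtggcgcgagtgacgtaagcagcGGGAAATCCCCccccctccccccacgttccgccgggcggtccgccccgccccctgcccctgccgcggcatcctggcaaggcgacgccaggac
The Ccl17 window is chr8:94810203-94810452 on the plus strand, and its capitals mark the palindrome TTCNNNNGAA, the spacing STAT6 is known to prefer. The Nfkb2 window is the first of 3 RefSeq promoters of that gene, chr19:46304487-46304736 on the plus strand, and the Rel window is chr11:23770970-23771219 on the minus strand. In these 2 windows the capitals mark matches to the NF-κB consensus, searched on both strands, of which the first 2 in Nfkb2 and the 2 in Rel overlap each other.

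The NF-κB consensus was found in the 250-base windows of 54 of the 489 genes with a RefSeq promoter that were at least 2-fold higher in the mature barcodes (11.0%) and of 32 of the 745 that were at least 2-fold lower (4.30%). The share was 5.62% over the 7514 genes tested that have a promoter in the table and 4.46% over all 27025 genes in it. It was found in 8 of 16 genes of the NF-κB pathway list and in none of 11 among the genes named for the highest ratios, of which 2, Ccl17 and Bcl2l14, held TTCNNNNGAA. TTCNNNNGAA was found in 5.73% of the higher genes, 7.52% of the lower genes and 5.66% of all genes tested. Neither motif was found in the windows of Fscn1, Ccl22, Cacnb3 or Il4i1. A match describes the letters in a window and is not evidence of binding.

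Mature dendritic barcodes were found under every suffix. There were 10, 19, 20, 13, 6 and 15 of them under suffixes 3 to 8, which is 1.15%, 1.17%, 1.18%, 0.979%, 0.351% and 0.744% of the barcodes of each. Suffix 7 had the lowest share, with an interval of 0.129 to 0.762% that overlapped those of the other 5 suffixes, and suffix 5 the highest. Among dendritic barcodes of both sets, the mature share was 37.1% over all suffixes and ran from 25.6% under suffix 5, which held 58 of the 141 immature barcodes, to 56.5% under suffix 6. Suffixes 4, 5, 6 and 8 held at least 10 barcodes of both sets.

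**Figure D1:**
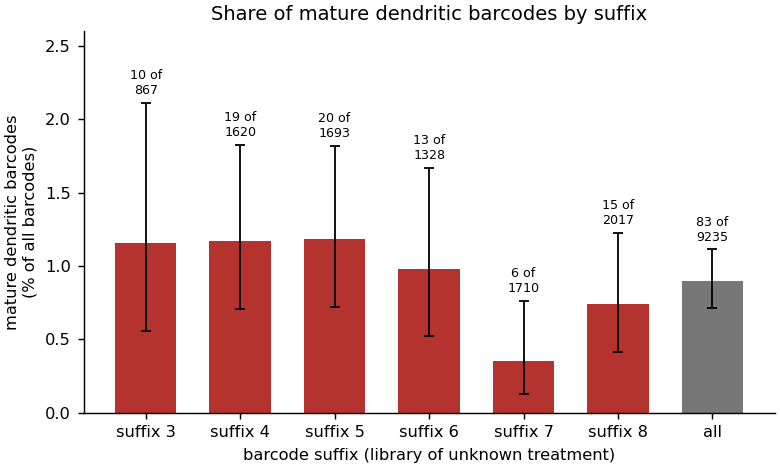
Mature dendritic barcodes as a percentage of all barcodes of each suffix (bars), with 95% exact binomial intervals and the counts above them. The bars of suffixes 3 to 6 sit between 0.979 and 1.18%, and those of suffixes 7 and 8 at 0.351 and 0.744%.

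Clustering of all 9235 barcodes on 2000 variable genes placed 67 of the 83 members (80.7%, 70.6 to 88.6%) in 1 cluster of 89 barcodes, led by Fscn1, Il12b, Ccl22, Cacnb3 and Bcl2l14. Only 1 immature barcode was in it. A further 11 members were in a cluster of 169 barcodes led by Cd209a, Cd209e and Mgl2, lectins of type 2 conventional dendritic cells (cDC2) and related cells, together with 28 immature barcodes. The remaining members were 3 in a cluster of 35 barcodes led by the fibroblast genes Ogn and Aspn, with a median of 35153 UMIs, and 1 in each of 2 clusters led by monocyte and macrophage genes. Fscn1, Ccl22, Cacnb3 and Ccr7 are genes of the rule, so that the first of these clusters is no independent check of the label. Of the members with all 4 genes, 39 of 40 were in it, and of those with exactly 2, 6 of 15.

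Macrophage transcripts were found in many dendritic barcodes of either kind. Of 13 monocyte/macrophage markers, 18 mature barcodes had a UMI of every one and 16 of none. With fewer than 5 markers there were 44 mature barcodes, at a median of 9106.5 UMIs, and 40 immature ones, at 9192 UMIs. With 5 or more there were 39 mature barcodes, at a median of 24905 UMIs, and 101 immature ones, at 25093 UMIs. The summed level of the 13 markers was 8009 CPM in the mature and 10328 CPM in the immature barcodes, with suffix values from 3614 to 13757 CPM and from 3837 to 13472 CPM, and it was 278 and 1096 CPM in the barcodes with fewer than 5. No marker of the 13 was at 0 in the mature set. Values for both sets with fewer than 5 markers (few macrophage markers) are given beside many results below, and the part of the macrophage transcripts in the results was not tested.

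**Figure D2:**
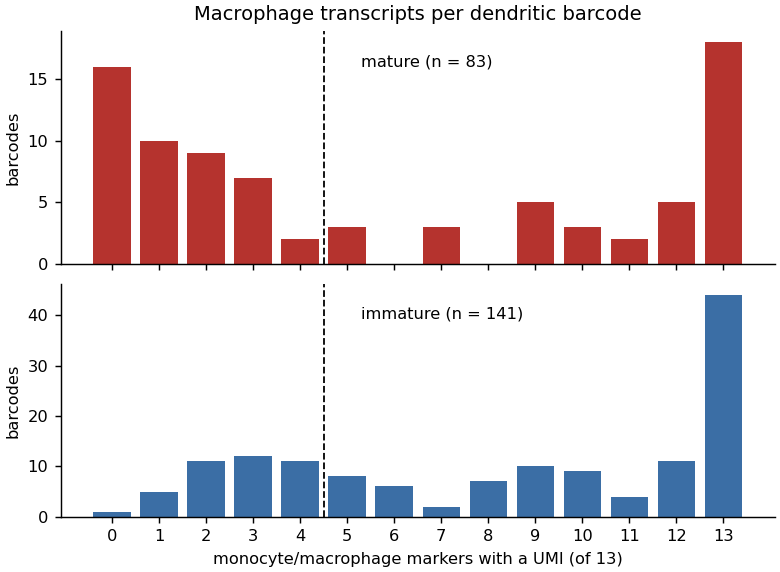
Number of mature (top) and immature (bottom) dendritic barcodes by how many of 13 monocyte/macrophage markers have a UMI, with a dashed line between 4 and 5. In the mature set 16 barcodes have none and 18 have all 13, and in the immature set 1 has none and 44 have all 13.

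Of 9394 genes with at least 20 UMIs over both sets, 638 were at least 2-fold higher (6.79%) and 966 at least 2-fold lower (10.3%) in the mature than in the immature barcodes, the 11 genes of the rules left out. The median log2 ratio over all genes tested was -0.18. With a trimmed mean of M-values (TMM) factor between the sums, which adds 0.12 to every log2 ratio, the counts were 756 higher and 789 lower. In barcodes with fewer than 5 macrophage markers, 13.3% of 4726 genes were higher and 23.0% lower, and in those with 5 or more, 5.16% of 8988 genes were higher and 8.03% lower. The counts of gene lists below stand beside these shares, each beside that of its own set of barcodes. The 2 smaller sets give noisier ratios for low genes. Of the 638 higher genes, 330 (51.7%, and 52.4% of the 630 in barcodes with few markers) were called in both, and of the 966 lower genes 262 (27.1%, and 24.1% of 1088). Only 349 of the 638 and 271 of the 966 had enough UMIs to be tested in the barcodes with few markers, which are themselves part of both sets. Several genes named below as at least 2-fold higher or lower were within 2-fold in a subset or with the TMM factor. With 5 or more macrophage markers these were Batf3, Birc3, Cd80, Cd274, Cxcl16, Fas, H2-Q7, Il15, Marcks, Marcksl1, Nlrc5, Psme2, Tnfrsf9 and Tnfsf9 of the higher genes and Ccr2, Ciita, H2-DMb1, Mki67, Mrc1, Myd88 and Nrp1 of the lower ones. With few markers they were Batf3, Ebi3 and Ifit2, and with the TMM factor Ciita, Mavs, Mki67, Mrc1, Myd88 and Nrp1.

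Chemokine ligands included some of the largest ratios. Of 11 chemokine ligands tested, 3 were at least 2-fold higher and none lower, with a median log2 ratio of 0.12, and with few macrophage markers 4 were higher and 5 lower, at -0.06. Ccl17, which with Ccl22 binds CCR4 on regulatory and helper T cells, was at 66.2, 117, 702, 94.4, 0 and 64.97 CPM under suffixes 3 to 8 in the mature barcodes, and in the immature ones it was at 3.73 CPM under suffix 4 and at 0 under the others. The pooled levels were 202 and 0.665 CPM, a ratio of 304 (83.4 to 2526) that rests on 2 immature UMIs. Ccl17 was found in 28 of 83 mature barcodes, 3 of which held over 50% of its UMIs, and suffix 5 stood far above the others. Its log2 ratio of 8.25 was 6.47 without suffix 5 and 7.62 without suffix 4.

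Ccl5, which draws T and NK cells, was at 5344, 3491, 2858, 3799, 2713 and 6252 CPM in the mature barcodes under suffixes 3 to 8 and at 103, 95.2, 151, 61.1, 284 and 274 CPM in the immature ones. Every mature value was above every immature one, and the pooled ratio was 22.2 (20.3 to 24.4). With few macrophage markers it was 396 (192 to 986), on 7 immature UMIs, and with 5 or more it was 15.1 (13.8 to 16.6). After thinning each barcode to 2000 UMIs, which left 80 mature and 140 immature barcodes, Ccl5 was found in 70.0% of mature, 10.7% of immature, 16.6% of macrophage barcodes and in 125 of 250 NK barcodes. NK cells are a known source of Ccl5.

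Cxcl16, a membrane-bound ligand of CXCR6 on activated T cells, was at 627 against 261 CPM, a ratio of 2.40 (2.18 to 2.65), and at 8.775 with few macrophage markers. The chemokines that macrophages make in quantity lay within 2-fold: the ratios were 1.09 for Ccl2, 0.815 for Ccl4, 1.74 for Cxcl9 and 1.30 for Cxcl10, and with few macrophage markers those of Ccl2 and Ccl4 were 0.271 and 0.0895. Ccl19, a ligand of CCR7 itself, had no UMI in either set.

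**Figure D3:**
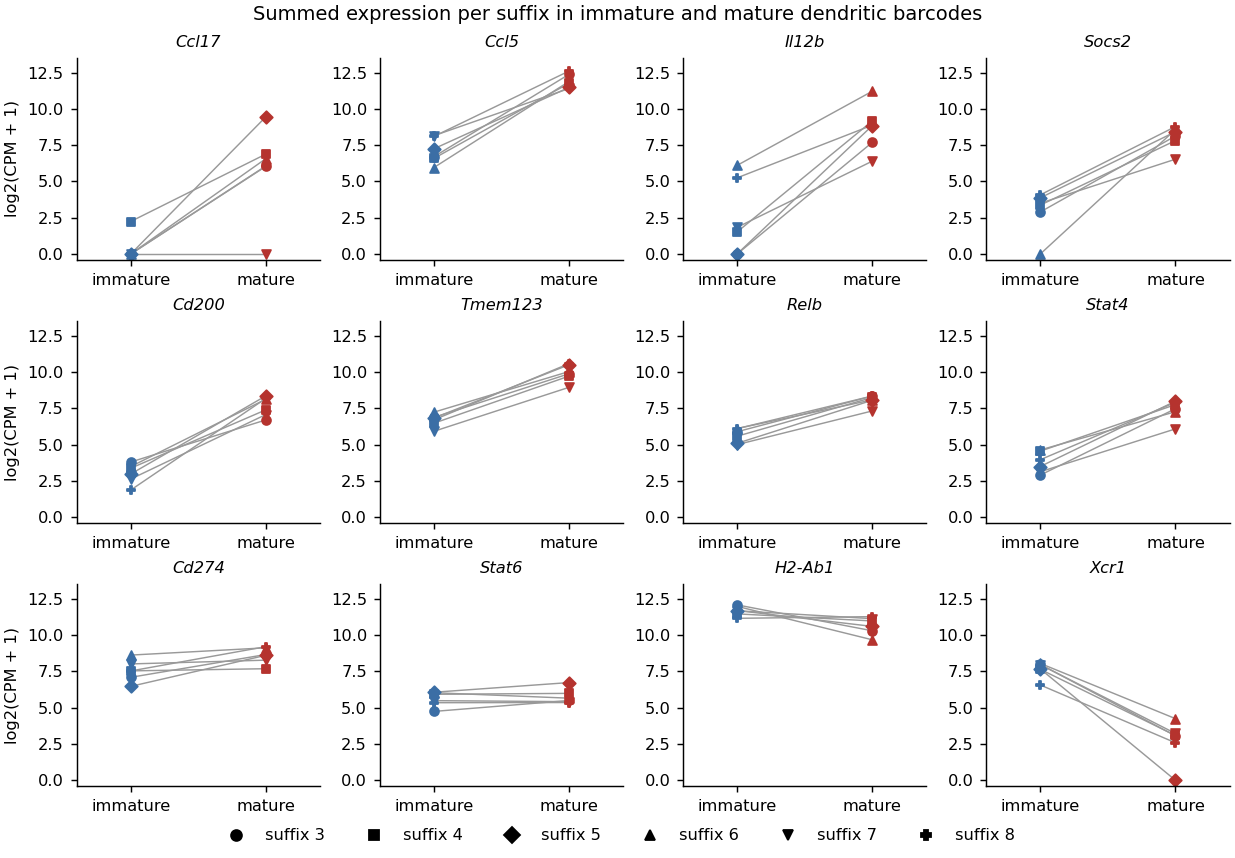
Summed expression of 12 genes, as log2(CPM + 1), in the immature (blue) and mature (red) dendritic barcodes of each suffix, with a line and a symbol for each suffix. Ccl5, Cd200, Socs2, Tmem123, Relb and Stat4 are higher in the mature barcodes under all 6 suffixes, Xcr1 is lower under all 6, and Stat6 lies close together in both sets.

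Among 12 cytokine genes tested, 6 were at least 2-fold higher and none lower, with a median log2 ratio of 0.91, and with few macrophage markers 3 of 6 were higher and 1 lower. Il12b encodes the p40 chain shared by IL-12 and IL-23, and it was at 206, 575, 460, 2378, 83.5 and 470 CPM under suffixes 3 to 8 in the mature barcodes, against 0, 1.87, 0, 67.9, 2.58 and 37.0 CPM in the immature ones. The pooled ratio was 45.5 (34.2 to 61.7). A single barcode held 48.1% of the mature Il12b UMIs, and 31 of 83 mature barcodes had any. All 31 lay in the leading cluster. The log2 ratio of Il12b, 5.51, was 6.37 without suffix 8 and 6.79 against immature barcodes with Cd209a and no Xcr1 or Clec9a. It was 4.84 with few macrophage markers and 5.05 against immature barcodes with Xcr1 or Clec9a. The partner chain Il12a had no UMI in the mature barcodes and Il23a was at 7.49 CPM, so that neither whole cytokine can be read from these data.

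Il15ra, the chain that presents IL-15 to T and NK cells, was at 134 against 7.31 CPM, a ratio of 18.3 (11.7 to 30.01), and Il15 was at 49.4 against 17.6 CPM, a ratio of 2.81 (1.93 to 4.11). Il15ra was found in 59 of the 83 members. Il27 and Ebi3, the chains of IL-27, had ratios of 2.58 and 2.41, but 1 barcode held 54.2% of the Il27 UMIs. Il6 was at 2.03, with 39.7% of its mature UMIs in 1 barcode. Il1b, at 1.01, and Tnf, at 1.15, were close to the immature level. Il10 was found in 3 members only.

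Of 11 genes for costimulation of T cells, 7 were at least 2-fold higher and none lower, with a median log2 ratio of 1.21, and with 5 or more macrophage markers 3 of 10 were higher and 1 lower. Cd40, through which helper T cells license dendritic cells, was at 206, 147, 179, 175, 125 and 175 CPM under suffixes 3 to 8 in the mature barcodes and at 19.3, 41.1, 31.8, 78.0, 33.5 and 34.4 CPM in the immature ones, without overlap. The pooled ratio was 4.35 (3.46 to 5.50), and 11.0 with few macrophage markers. Cd80, a ligand of CD28, had a ratio of 2.92 (2.26 to 3.78), while Cd86, its companion, had 1.44 and Cd83 1.57.

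Of the tumor necrosis factor family, Cd70, the ligand of CD27, was at 33.0 CPM in 18 members and had no UMI in the immature set. Against a floor of 3 counts over that set it was 33.1-fold higher, a value that leaves out counting error in the mature barcodes. Tnfsf9 (4-1BB ligand) was at 2.13 and its receptor Tnfrsf9 at 3.78, and the latter was at 166 (29.3 to 6603) with few macrophage markers, on 1 immature UMI, and at 1.62 with 5 or more. Slamf1 was found in 12 members, at a ratio of 15.8 (5.52 to 61.9).

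Of 13 genes that restrain T cells or myeloid cells, 6 were at least 2-fold higher and 2 lower, with a median log2 ratio of 0.82. With few macrophage markers 4 of 10 were higher and 3 lower. Cd200, whose receptor dampens myeloid cells, was at 103, 167, 327, 279, 134 and 290 CPM under suffixes 3 to 8 in the mature barcodes and at 12.9, 9.33, 6.82, 10.2, 5.16 and 2.64 CPM in the immature ones. The groups did not overlap, and the pooled ratio was 33.9 (21.6 to 56.4).

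Socs2, an inhibitor of cytokine receptor signalling, was at 280, 225, 343, 382, 91.8 and 440 CPM against 6.45, 9.33, 13.6, 0, 10.3 and 15.9 CPM, again without overlap, and the pooled ratio was 26.5 (18.7 to 38.8). It was 282 (50.1 to 11182) with few macrophage markers, on 1 immature UMI, and 13.6 (9.33 to 20.4) with 5 or more. After thinning, Socs2 was found in 43.8% of mature, 0.714% of immature, 2.23% of macrophage and 2.80% of NK barcodes. For Cd200 the shares were 41.2%, 2.14%, 1.54% and 0 of 250 barcodes.

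The ligands of PD-1 differed in extent. Pdcd1lg2 (PD-L2) was at 164 against 35.6 CPM, a ratio of 4.61 (3.65 to 5.87), and Cd274 (PD-L1) at 387 against 183 CPM, a ratio of 2.11 (1.87 to 2.38). The Cd274 levels of the suffixes overlapped, from 205 to 590 CPM in the mature and from 87.6 to 394 CPM in the immature barcodes, and after thinning 58.8% of mature, 26.4% of immature and 39.0% of macrophage barcodes had a UMI. Its log2 ratio of 1.08 was under 1, at 0.79, without suffix 5, at 0.94 without suffix 8, at 0.73 with 5 or more macrophage markers and at 0.91 against immature barcodes with Cd209a and no Xcr1 or Clec9a, and it was 2.41 with few markers. Aldh1a2, which makes retinoic acid, was found in 9 members with 53.3% of its UMIs in 1. Havcr2 (TIM-3) had a ratio of 0.214 and Nrp1 of 0.497. Ido1, a tryptophan-degrading enzyme linked to tolerogenic dendritic cells, had no UMI in the mature barcodes, which allows up to 3 counts in 1334793 UMIs.

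NF-κB pathway genes lay above the immature level. All 18 genes of the list had a ratio above 1, 10 were at least 2-fold higher and none lower, and the median log2 ratio was 1.02. Relb, the partner of the Nfkb2 product in the non-canonical branch, was at 324, 302, 265, 270, 159 and 325 CPM under suffixes 3 to 8 in the mature barcodes and at 58.0, 46.6, 33.0, 67.9, 30.9 and 67.4 CPM in the immature ones, without overlap, at a pooled ratio of 5.82 (4.80 to 7.10). Map3k14, the kinase that opens this branch, had a ratio of 4.12 (3.26 to 5.21) and Nfkb2 of 2.75 (2.26 to 3.35).

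Of the canonical subunits, Rel had a ratio of 2.78 (2.53 to 3.05), with a log2 ratio of 1.47 that was 0.94 against immature barcodes with Cd209a and no Xcr1 or Clec9a, Nfkb1 of 1.92 and Rela of 1.405. Birc2, a ubiquitin ligase that controls MAP3K14, was at 7.95 (6.35 to 10.0), and the adaptor Traf1 at 3.72 (3.36 to 4.12). The inhibitors Nfkbia and Tnfaip3 were closer to the immature level, at 1.39 and 1.04. In barcodes with few macrophage markers, 12 of 15 genes were at least 2-fold higher and none lower, with Relb at 5.81, while Nfkbie and Tnip3 were at 0.943 and 0.753.

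Of 21 genes of migration and the cytoskeleton, 13 were at least 2-fold higher, 2 lower and 6 neither, at a median log2 ratio of 1.21. With 5 or more macrophage markers 9 were higher and 1 lower. Tmem123 was at 942, 842, 1450, 1047, 493 and 1529 CPM under suffixes 3 to 8 in the mature barcodes and at 116, 87.7, 113, 149, 59.3 and 103 CPM in the immature ones, a pooled ratio of 10.5 (9.25 to 11.9). Tbc1d4, a Rab GTPase-activating protein, had a ratio of 11.0 (9.62 to 12.6), Samsn1 of 10.6 (9.18 to 12.2) and Swap70, an actin-binding exchange factor, of 4.18 (3.41 to 5.15). Marcks and Marcksl1, which link actin to the membrane, were at 2.12 and 2.32. The 2 lower genes were Itgae (CD103), at 0.0623, and Ccr2, the receptor that brings monocytes into tissue, at 0.431. Against immature barcodes with Cd209a and no Xcr1 or Clec9a, the log2 ratio of Itgae, also a cDC1 marker, was -0.61 in place of -4.00.

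Of 13 genes for cell survival and death, 5 were at least 2-fold higher and none lower, with a median log2 ratio of 0.32, against 3 of 13 higher with 5 or more macrophage markers and 5 of 10, at a median of 0.91, with few. Over all barcodes the 5 were Bcl2a1a, Bcl2a1b and Bcl2a1d, near-identical copies of an anti-apoptotic gene whose reads may be split between them, at 2.54 to 3.01, with Birc3 at 2.06 and Fas at 2.19. Bcl2 was at 0.5105 and Mcl1 at 1.15.

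Antigen presentation differed between its branches. Of 14 genes of MHC class II and its loading, none was higher and 4 lower, at a median log2 ratio of -0.48. Over all genes tested 6.79% were higher and 10.3% lower. H2-Ab1 was at 1259, 2014, 1552, 818, 2246 and 2474 CPM under suffixes 3 to 8 in the mature barcodes and at 4340, 2823, 3311, 4048, 3277 and 2282 CPM in the immature ones, a pooled ratio of 0.563 (0.538 to 0.590), and the groups overlapped through suffix 8 alone. Its log2 ratio of -0.83 was -1.41 in members with at least 3 of the 4 genes beside Ccr7 and -1.49 in the leading cluster. It was -1.50 with few macrophage markers and -1.06 without suffix 8, but -0.67 with 5 or more markers and -0.63 without suffix 6. H2-Aa was at 0.721 and the invariant chain Cd74 at 0.793. The 4 lower genes were H2-DMb1, a peptide-loading subunit, at 0.369, Ciita, the master regulator of class II genes, at 0.463, H2-Ob at 0.428 and March1, the ligase that removes class II from the surface, at 0.283. The log2 ratio of H2-DMb1, -1.44, was -0.95 with 5 or more macrophage markers and -3.38 with few. With 5 or more macrophage markers, 2 of 14 were lower, and with few, 7 were lower and 1, Lgmn, a lysosomal protease, higher. Over all genes tested, 8.03% were lower with 5 or more markers, and 23.0% were lower and 13.3% higher with few.

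Of 13 genes of MHC class I and its loading, 3 were at least 2-fold higher and none lower, at a median log2 ratio of 0.53. The 3 were Psme2, a proteasome activator subunit, at 2.44, H2-Q7, which shares sequence with other class I genes, at 2.37, and Nlrc5, the class I regulator, at 2.08, and with 5 or more macrophage markers none of the 13 genes was higher. B2m, the light chain of class I, was at 2529 to 3417 CPM in the mature and 1623 to 2800 CPM in the immature barcodes, a ratio of 1.62 (1.55 to 1.68). The 15 interferon-induced genes had a median log2 ratio of 0.39, with 1 higher, Ifit2, of whose UMIs 39.7% were in 1 barcode, and with few macrophage markers 4 of 12 were higher and 1 lower, at a median of -0.12.

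More genes were lower than higher over all genes tested, 10.3% against 6.79%, and the counts of sensing and uptake genes stand beside these shares. Of 14 Toll-like receptors and adaptors, none was higher and 4 lower, at a median log2 ratio of -0.59: Tlr3, a receptor for double-stranded RNA, at 0.155, Tlr11, with no UMI in the mature barcodes against 24.3 CPM, Myd88 at 0.492 and Mavs, with 5 UMIs in the mature barcodes, at 0.470. In barcodes with few macrophage markers, where 13.3% of all genes tested were higher and 23.0% lower, 4 of 5 were lower, at a median of -1.98. Of 17 antigen uptake receptors, 1 was higher and 4 lower, at a median of -0.32, and with few macrophage markers 2 of 12 were higher and 8 lower, at -2.32. The higher one was Ly75 (DEC-205), at 204 against 17.6 CPM, a ratio of 11.6 (8.59 to 15.8), which was found after thinning in 36.2% of mature, 5.00% of immature and 0.453% of macrophage barcodes. The lower ones were Clec9a, at 0.199, Clec10a, at 0.338, Cd36, at 0.321, and the mannose receptor Mrc1, at 0.464. The log2 ratio of Mrc1, -1.11, was above -1 with TMM scaling, at -0.99, without suffix 5, at -0.81, without suffix 8, at -0.99, with 5 or more macrophage markers, at -0.84, and against immature barcodes with Xcr1 or Clec9a, at -0.93, and it was -3.52 with few macrophage markers.

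**Figure D4:**
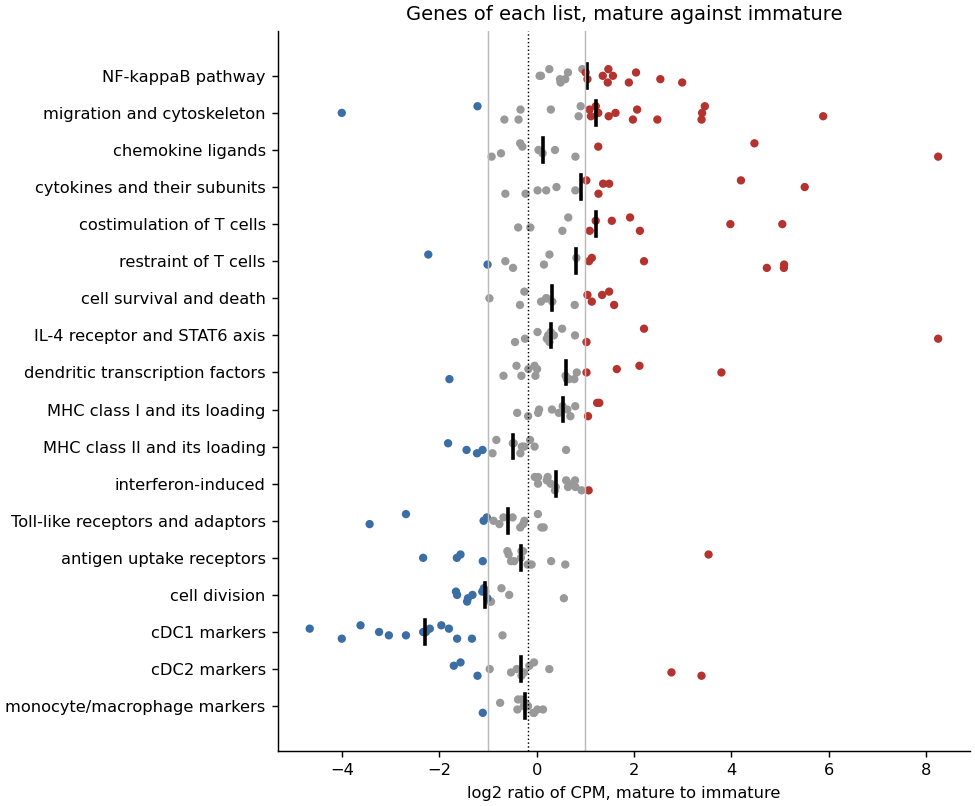
Log2 ratio of CPM, mature to immature, for the tested genes of 18 lists (points, red at least 2-fold higher, blue at least 2-fold lower, grey between), with the median of each list (black bar) and of all genes tested (dotted line, -0.18). The NF-κB list has all its genes above 0, and the cDC1 markers have 13 of 14 in blue.

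Stat6, the gene the oligonucleotide was directed against, did not stand out in these barcodes. It was at 44.2, 62.5, 105, 49.5, 41.7 and 40.0 CPM under suffixes 3 to 8 in the mature barcodes and at 25.8, 59.7, 65.9, 64.5, 43.8 and 39.7 CPM in the immature ones, a pooled ratio of 1.16 (0.874 to 1.52). With few macrophage markers the ratio was 1.90. Il4ra, the receptor chain shared by IL-4 and IL-13, was at 0.735 (0.583 to 0.921), and at 1.91 with few markers. Il4 and Il13 had no UMI in the mature barcodes. Of 13 genes of the IL-4 receptor and STAT6 axis tested, 3 were at least 2-fold higher, Ccl17, Pdcd1lg2 and Batf3, and none lower, with a median log2 ratio of 0.29. Batf3 was within 2-fold, at 1.96 and 1.70, with few and with 5 or more macrophage markers.

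Among 17 dendritic transcription factors, 4 were at least 2-fold higher and 1 lower, at a median log2 ratio of 0.60. Stat4, which relays IL-12 and type I interferon signals, was at 177, 215, 253, 153, 66.8 and 240 CPM under suffixes 3 to 8 in the mature barcodes and at 6.45, 22.4, 10.2, 23.8, 7.73 and 14.5 CPM in the immature ones, without overlap, and its ratio was 13.9 (10.0 to 19.7). Etv3 was at 4.32 (3.79 to 4.94), Stat5a at 3.13 and Batf3 at 2.03. Ahr, the aryl hydrocarbon receptor, was at 0.289. Irf8 was at 1.01 and Irf4 at 1.77 (1.09 to 2.86), the latter in 13 members.

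Markers of type 1 conventional dendritic cells (cDC1), which take up dead cells and cross-present their antigens, were low. Of 14 tested, 13 were at least 2-fold lower and none higher, at a median log2 ratio of -2.30. Xcr1 was at 7.36, 7.498, 0, 18.0, 8.35 and 5.00 CPM under suffixes 3 to 8 in the mature barcodes and at 252, 200, 204, 265, 250 and 93.9 CPM in the immature ones, a pooled ratio of 0.0395 (0.0188 to 0.0731). Wdfy4, needed for cross-presentation, was at 0.106, Naaa at 0.122 and Sept3 at 0.0814. The 11 members in the Cd209a cluster held 23 of the 30 mature Sept3 UMIs and 31 of the 48 mature Wdfy4 UMIs. With members of the leading cluster only, the log2 ratios were -5.59 for Sept3 and -4.38 for Wdfy4, in place of -3.62 and -3.24. Wdfy4 with few macrophage markers was at 0.00749 (0.000903 to 0.0273), on 2 mature UMIs, and Naaa at 0.0130 (0.00521 to 0.0269), and with 5 or more they were at 0.176 and 0.182. Of the 141 immature barcodes, 81 had a UMI of Xcr1 or Clec9a and 28 had Cd209a and neither of these, so that the immature set was weighted to cDC1.

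Of 13 cDC2 markers tested, 2 were higher and 3 lower, at a median log2 ratio of -0.31, and with few macrophage markers 2 of 10 were higher and 5 lower, at -1.68. Over all barcodes the 2 higher ones were Tmem176a, at 10.5 (8.38 to 13.2), and Tmem176b, at 6.82 (5.52 to 8.48). Tmem176a was at 337 CPM in the mature barcodes, 14.5 CPM in the immature ones with Xcr1 or Clec9a and 121 CPM in those with Cd209a. Cd209a itself was found in 6 members, 4 of them in the cluster led by that gene, and 1 barcode held 49.5% of its mature UMIs. Its log2 ratio of -0.53 was -1.25 without suffix 6, -2.81 with few macrophage markers, -4.39 in the leading cluster and -4.48 in members with at least 3 of the 4 genes, but 0.31 with 5 or more macrophage markers and 1.36 against immature barcodes with Xcr1 or Clec9a.

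**Figure D5:**
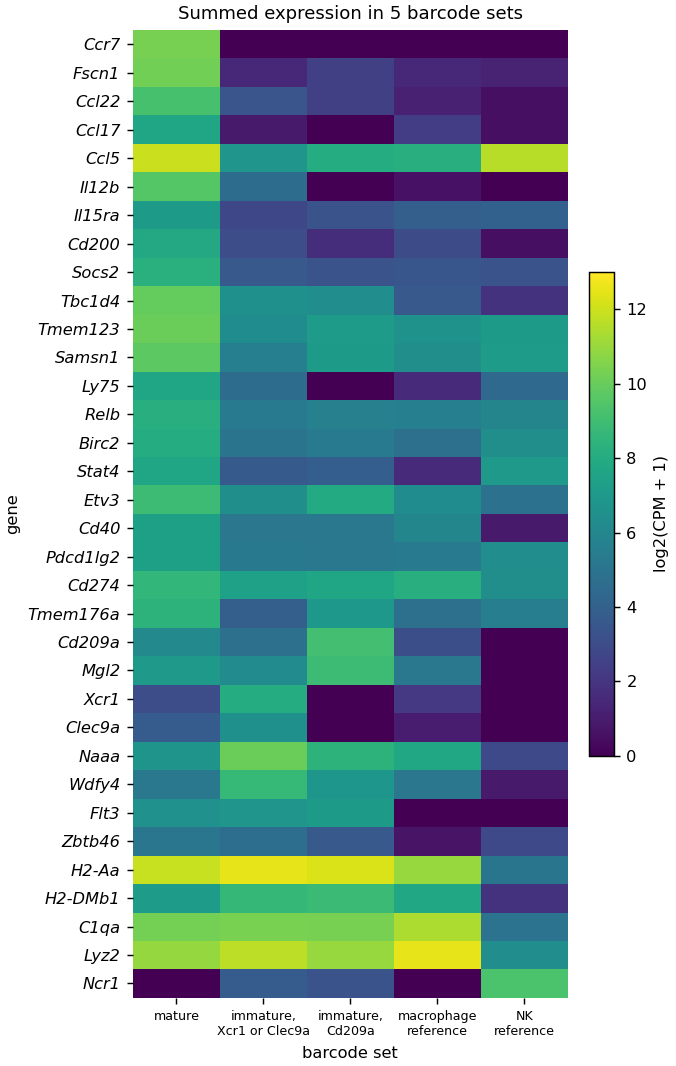
Summed expression, as log2(CPM + 1), of 34 genes in mature barcodes, immature barcodes with Xcr1 or Clec9a, immature barcodes with Cd209a and neither of those, macrophage barcodes and NK barcodes. Ccr7 is at 0 outside the mature set by construction, Cd200 is at 226 CPM in it against 7.47, 2.28, 6.91 and 0.460 CPM in the others, and Ccl5 is shared with NK barcodes at 3059 CPM.

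The 15 genes with the highest ratio, among those with at least 50 CPM and 1 direction under suffixes 4, 5, 6 and 8, were Ccl17, Gm13546, Nudt17, Sox4, Mreg, Il12b, Gm47662, Ikzf4, Slc27a3, Cd200, Snn, Socs2, Bcl2l14, Ccl5 and Il15ra. Their ratios ran from 304 to 18.3. Mreg, a regulator of vesicle transport, was at 83.9 against 1.66 CPM and was found in 46 of 83 members. Sox4, a transcription factor, was at 76.4 against 1.33 CPM, and Ikzf4 (Eos) at 56.9 against 1.33 CPM. Slc27a3, a fatty acid transporter, was at 124 against 2.99 CPM. With few macrophage markers Mreg was at 42.1 (11.2 to 355) and Slc27a3 at 37.2 (9.87 to 314), each on 2 immature UMIs. Sox4 and Ikzf4 had no immature UMI there and were 22.8-fold and 15.5-fold higher against a floor of 3 counts over that set. The lower limits of their exact intervals were 17.9 and 12.0. Leaving out single suffixes changed the ratios of several of the 15, but most of these rest on few immature UMIs. Over all suffixes there were 4 for Sox4 and Nudt17, 5 for Mreg, 6 for Gm13546 and Snn, 7 for Gm47662 and 9 for Slc27a3. The pooled ratio of Sox4 had a counting interval of 21.8 to 215, and that of Mreg 21.0 to 159. The log2 ratio of Mreg, 5.66, was 7.45 without suffix 8 and 5.02 without suffix 5, that of Sox4, 5.85, was 7.42 without suffix 5, and that of Slc27a3, 5.37, was 4.42 without suffix 4. For Gm13546 it was 5.97, and 7.39 without suffix 7, for Gm47662 5.49, and 6.27 without suffix 8, for Nudt17 5.89, and 5.27 without suffix 5, for Snn 4.74, and 5.63 without suffix 5, and for Bcl2l14 4.61, with 3.57 and 5.53 without suffixes 4 and 7.

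The 10 genes with the lowest ratio were Plet1, Prf1, Xcr1, Gzmb, Nkg7, Il2rb, Itgae, Sept3, Wdfy4 and Gpr171. Plet1 was at 3.75 against 280.5 CPM, a ratio of 0.0134 (0.00433 to 0.0313), and Gpr171 at 0.109. The Plet1 level was 363 CPM in immature barcodes with Xcr1 or Clec9a and 27.4 CPM in those with Cd209a and neither, and against the latter the log2 ratio was -2.87 for Plet1, -2.33 for Gpr171 and -1.67 for Wdfy4, in place of -6.23, -3.19 and -3.24, and for the cDC1 marker Naaa it was -1.68 in place of -3.04. The cytotoxic genes Prf1, Gzmb, Nkg7 and Il2rb had log2 ratios of -5.99, -4.40, -4.27 and -4.17. The rule removed barcodes with T, NK or B cell UMIs from the mature set alone. Against immature barcodes that also lacked those UMIs, the 4 log2 ratios were -1.70, -0.38, -1.38 and -0.74, and with few macrophage markers Gzmb had 4 mature UMIs and no immature UMI. Xcr1 kept its ratio there, at a log2 value of -4.89 against -4.66. Without suffix 5 the log2 ratio of Plet1 went from -6.23 to -7.31, of Prf1 to -7.03, of Gzmb to -5.11, of Il2rb to -5.27, of Itgae from -4.00 to -4.61 and of Sept3 from -3.62 to -4.67, and without suffix 4 those of Gzmb and Il2rb went to -3.70 and -3.43.

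Of 14 cell division genes, 9 were at least 2-fold lower and none higher, at a median log2 ratio of -1.07. The count was 4 of 14, at -0.74, with 5 or more macrophage markers and 8 of 9, at -3.03, with few. The shares lower over all genes tested were 10.3% in all barcodes, 8.03% with 5 or more markers and 23.0% with few. Top2a, which untangles replicated DNA, was at 0.371 (0.275 to 0.494) and Mki67, a marker of cycling cells, at 0.496 (0.372 to 0.652). Mki67 was at 5.00 to 95.7 CPM under the suffixes in the mature barcodes and at 20.4 to 172 CPM in the immature ones, so that the ranges overlapped.

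Markers of other cell types were read as a check. All 7 T cell markers tested and 6 of 7 NK markers were at least 2-fold lower, which the rule itself favours. None of 6 neutrophil markers was higher and 1 was lower, with summed levels from 58.9 to 1636 CPM under the suffixes in the mature and from 6.45 to 755 CPM in the immature barcodes. Of 5 stromal markers tested, 3 were higher, Col1a2 at 13.04, Col3a1 at 6.76 and Sparc at 2.73. Col1a2 was at 191 and 122 CPM under suffixes 3 and 4 and at 4.496 to 11.7 CPM under the other mature suffixes, and Krt8, an epithelial keratin, had no UMI. Of the 13 monocyte/macrophage markers none was higher and 1, Mrc1, lower. The 4 plasmacytoid dendritic markers tested and the 1 B cell marker tested, Ighm, were within 2-fold, and of 2 mast cell and basophil markers 1 was lower. The part of stromal RNA in these values was not tested.

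The members were not uniform. In the 67 barcodes of the leading cluster Fscn1 was at 1511 CPM, Ccl5 at 4991 CPM, Il12b at 967 CPM, Cd200 at 276 CPM and H2-Aa at 3068 CPM. In the 11 barcodes of the Cd209a cluster the levels were 88.6, 195, 0, 53.2 and 8517 CPM. Ccr7 was at 1465 and 780 CPM and Il4i1 at 287 and 644 CPM. Ccl17 was at 156 CPM in 23 barcodes of the first and 378 CPM in 3 of the second, and Etv3 at 499 and 555 CPM. The clusters were drawn from these same genes, so that the differences describe them and are no independent result.

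Within the members, Ccl17 and Il12b were found together in 11 barcodes, Ccl17 alone in 17, Il12b alone in 20 and neither in 35. After thinning to 2000 UMIs, the numbers were 4, 8, 18 and 50 of 80. Among genes found in most members, no barcode held more than 5.04% of the UMIs of Marcks, Tmem123, Tbc1d4, Relb, Traf1 or Etv3, and 21 to 23 barcodes were needed to reach 50% of them.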

How the data were processed

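The authors deposited 1 table of raw UMI counts for 20649 genes and 9235 barcodes of 10x 3′ v3.1 libraries. The submitters' processing notes name Cell Ranger 1.2, Seurat 3.1.5, R 4.0.1 and mm10, and the filters behind the table are not given in the sources used here. Members and gene lists were chosen with earlier results of these data known. No doublet caller was run, and of the 9235 barcodes 1 mature one shared its sequence with a barcode of another suffix. Macrophage barcodes (5703) had at least 5 of 13 macrophage markers, and NK barcodes (265) had Ncr1 and fewer than 5, both without Flt3, Ccr7 or the other lymphocyte genes of the rule. Counts were summed over each set and divided by its total UMIs (1334793 mature, 3009387 immature). Ratios of CPM have 95% exact conditional binomial intervals, and with 1 pooled sample there is no test. Named genes are those of 27 lists and, with at least 20 UMIs, 50 CPM and 1 direction in the 4 suffixes with 10 barcodes of each set, the 15 highest and 10 lowest ratios. Clusters came from scanpy 1.11.5 (counts scaled to 10000, log, 2000 genes, 30 principal components, 15 neighbours, Leiden resolution 1.0). The TMM factor came from edgeR 4.0.16, and the code was tested on simulated data. Promoters are from RefSeq (GRCm38.p6), matched by symbol.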

Additional observations from a re-analysis of the deposited data

Results flagged for a closer look

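Signals of the mature dendritic genes were also found in barcodes that no comparison above used. They were 26 barcodes with Ccr7 and at least 2 of the 4 other genes but also a T, NK or B cell UMI, with a median of 38954.5 UMIs, all 13 macrophage markers and 9 lymphocyte UMIs at the median, and 13 of them in the leading cluster. Fscn1 was at 323 CPM and Ccl17 at 35.6 CPM in them.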

How the results depend on the processing

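No paired analysis was possible between treatments because barcode suffixes match no tumor and thus carry none of the replicate numbers in the labels. Mature and immature barcodes could still be compared under each suffix. With each suffix weighted equally, 719 genes were at least 2-fold higher and 1199 at least 2-fold lower in the mature barcodes. The share of mature barcodes, 0.899%, was 0.530% when every barcode was thinned to 2000 UMIs before the rule was applied. Members with fewer than 5 macrophage markers, 44 in number, were 0.476% of all 9235 barcodes. Under the rule as given, the share of mature barcodes ran from 0.835 to 1.02% without each suffix in turn. The 638 higher genes became 1085 with no minimum count, 291 with at least 100 UMIs and 202 at a 4-fold threshold. The 966 lower genes became 327 and 221 under the last 2 of these and 1782 with each barcode weighted equally, and the cause was not tested. Without each suffix in turn, the higher genes numbered 543 to 623 and the lower genes 819 to 1081. Of 42 genes followed, 549 of 711 values under the alternatives moved less than the counting interval, and 8 changed sign. C1qa, within 2-fold at a log2 ratio of -0.18, had 4 of these, at 0.05 to 0.65, and Cd209a, at -0.53, had 2, at 0.31 and 1.36. Gzmb had 4 UMIs against none in both sets with fewer than 5 macrophage markers, and 0.70 on the log2 scale is only a bound against a floor of 3 counts. Xcr1 had 0.13 against immature barcodes with Cd209a and no Xcr1 or Clec9a, which lack Xcr1 by construction. Subsets by macrophage markers of 5 or more, by cluster and by immature type were chosen after seeing the data. Thinning and shallow barcodes limit what can be read of genes found in few members.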
